A study of Mus musculus with 6 samples.

Results

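The genes examined here encode the machinery that makes microRNAs (miRNAs) and carries out their silencing. They were chosen by symbol: *Drosha*, *Dgcr8*, *Xpo5*, *Dicer1*, *Tarbp2*, *Prkra*, *Ago1*, *Ago2*, *Ago3* and *Tnrc6a*. Of these 10 genes, 9 were among the 14548 genes of the expression files, and *Dgcr8* was not analysed here. The 9 genes passed the filter on low values, an expression of at least 1 FPKM in at least 1 library. FPKM scales the fragments on a gene by its exonic length and by the mapped fragments of its library, so levels are per length. Comparisons between genes are rough, since differences between these libraries still followed gene length, as described below.

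A miRNA gene is transcribed as a long primary transcript that folds into a hairpin. In the nucleus the RNase III enzyme Drosha, with its RNA-binding partner Dgcr8, cuts the hairpin free, and exportin 5 (*Xpo5*) carries it to the cytoplasm. There Dicer (*Dicer1*), with the double-stranded RNA-binding proteins TRBP (*Tarbp2*) and PACT (*Prkra*), cuts off the loop. One strand of the duplex is loaded into an Argonaute protein, which pairs it with target mRNAs, and the scaffold GW182 (*Tnrc6a*) then recruits enzymes that shorten and degrade those mRNAs. *Ago2* encodes the Argonaute known for slicing a perfectly paired target.

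C2C12 cells, mouse myoblasts that can form skeletal muscle fibres, were the source of the RNA, and were cultured in medium with fetal bovine serum. The 3 WT libraries were from unedited cells, and the 3 MSTN-KO libraries were from the line C11, in which exon 3 of the myostatin gene *Mstn* had been disrupted by CRISPR/Cas9. The KO group is thus 1 edited line, and the loss of MSTN cannot be told apart from other differences between that line and WT cells. C11 is also written as the strain of the WT samples in the labels, and the groups here follow the labelled genotype. Nothing says that the replicates were separate cultures, so the p-values measure the spread between these libraries, which may be technical. The study looked for miRNAs that change on loss of MSTN, and the question here is whether mRNAs of the processing and silencing machinery differed between the groups.

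The files give no fragment counts. Among the 453 to 653 genes under 0.1 FPKM in both of a pair of libraries, ratios to WT replicate 1 did not pile up at 1 value (at most 17 genes in a bin of 0.02 on the log2 scale), so no depth was taken from them. The FPKM values summed to between 723705 and 764524 in WT and between 856314 and 999579 in MSTN-KO. Of 6 myoblast markers, 5 were in the files, and their summed level ran from 1260 to 1728 FPKM in WT and from 728 to 906 FPKM in MSTN-KO. Of these 5, 4 had a lower mean in MSTN-KO, and *Myf5* was at 9.74 to 12.9 FPKM in WT and 9.49 to 14.7 FPKM in MSTN-KO. Of 8 markers of differentiated muscle, 7 were in the files, with sums of 251 to 875 FPKM in WT (lowest in replicate 3) and 36.3 to 65.9 FPKM in MSTN-KO. All 7 had a lower mean in MSTN-KO, so the cultures also differed in this respect, and its part in the results that follow was not tested. Endothelial, epithelial and germ cell markers stayed under 0.5 FPKM in each library, with *Epcam*, *Ddx4* and *Piwil1* not analysed here. Of the blood markers only *Cd68* was in the files, at 0.702 to 2.39 FPKM.

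A hairpin whose host gene is expressed in these cells shows what the machinery works on. Mir335 lies in an intron of *Mest* on chromosome 6 (GRCm38.p6, plus strand, chr6:30741299-30741396), and its RefSeq sequence is shown 5′ to 3′ with both mature arms in capitals. Drosha makes the cuts at the base of the stem and Dicer those next to the loop. The mature miRNAs, which the study names, follow with the seed (bases 2 to 8, which pair with targets) in capitals.
Mir335 hairpin: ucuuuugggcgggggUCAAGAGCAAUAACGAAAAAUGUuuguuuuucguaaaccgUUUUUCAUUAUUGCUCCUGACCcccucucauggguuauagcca
mmu-miR-335-5p: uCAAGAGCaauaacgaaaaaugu
mmu-miR-335-3p: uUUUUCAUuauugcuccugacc
The arms have different seeds, and mature miRNAs were not measured in these libraries.

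None of the 9 genes passed the test between MSTN-KO and WT. With limma on log2(FPKM + 1) over 10837 genes and a Benjamini-Hochberg adjusted p under 0.05 as the threshold, 0 were called higher and 0 lower (limma), against 17.7% of all tested genes called (8.78% higher and 8.96% lower). At an unadjusted p under 0.05 the count was 1 (*Ago2*), against 32.6% of all tested genes. By the criteria of the study's methods (unadjusted p under 0.05 with a log2FC beyond 1 or -1), 0 of the 9 were DEGs, against 1.21% of all tested genes upregulated and 2.3% downregulated. The fitted log2 fold changes (log2FC, MSTN-KO against WT) of the 9 genes lay between -0.42 and 0.27 with a median of -0.04, beside a median of 0.00 over all tested genes. Their standard errors were 0.123 to 0.191, so the 95% confidence intervals still allow moderate differences, and a missed threshold does not show equal levels. In 1 of the 9 genes (11.1%), *Drosha*, the groups did not overlap, against 37.4% of all tested genes (19.3% with MSTN-KO higher).

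**Figure D1:**
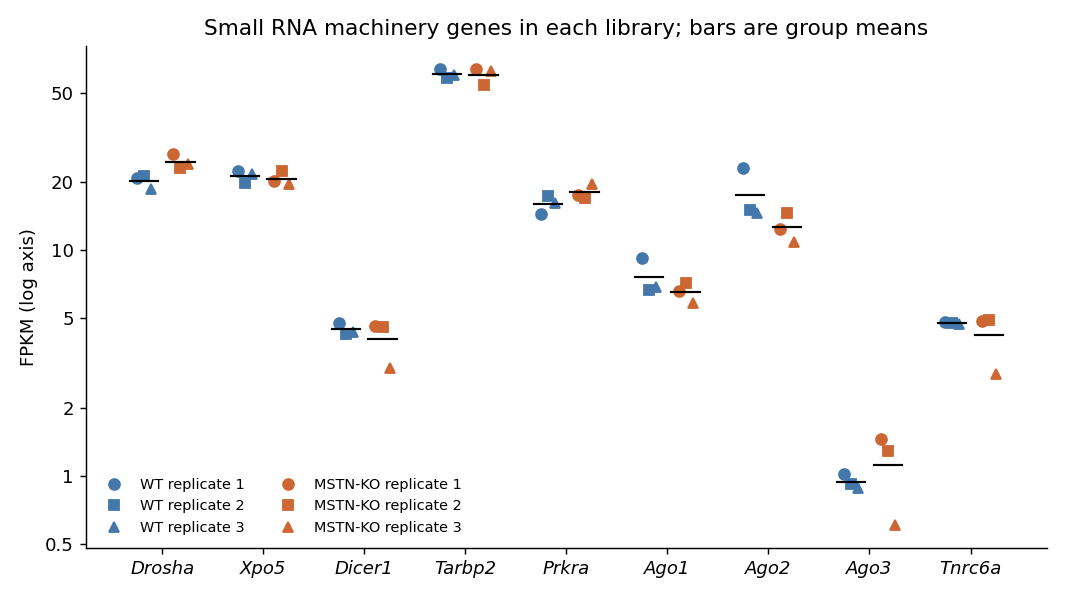
FPKM (log axis) of the 9 genes in the 3 WT and 3 MSTN-KO libraries, each point a library and each bar a group mean. *Tarbp2* stands highest at 53.8 to 63.8 FPKM and *Ago3* lowest at 0.606 to 1.45 FPKM, and only for *Drosha* do all MSTN-KO points lie above all WT points.

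The levels of the 9 mRNAs spanned a wide range that was similar in both groups. *Tarbp2* had the highest mean, 60.5 FPKM in WT and 59.9 FPKM in MSTN-KO, and lay clear of the next gene in each group. In WT, *Xpo5* (21.4 FPKM), *Drosha* (20.3) and *Ago2* (17.6) followed, then *Prkra* (14.4 to 17.3 FPKM), and neighbours in this order overlapped over the 3 libraries. *Ago1* (7.60 FPKM) stood apart from the genes on either side of it, while *Tnrc6a* (4.77) and *Dicer1* (4.46) overlapped, and *Ago3* (0.939) was lowest. In MSTN-KO, *Drosha* (24.7 FPKM) came before *Xpo5* (20.7) without overlap, and *Prkra* (18.1 FPKM) before *Ago2* (12.6), again without overlap. Among the tested genes *Tarbp2* lay at percentile 85 of mean FPKM, *Dicer1* at percentile 24.5 and *Ago3* at percentile 4.93. The mRNA of the Dicer partner *Tarbp2* was thus several times as abundant per length as that of *Dicer1* itself in each library.

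*Drosha* (chromosome 15, 12824815 to 12935291 in GENCODE M21 on GRCm38, plus strand), the enzyme of the nuclear step, had the largest positive difference. It was at 20.8, 21.2 and 18.8 FPKM in replicates 1, 2 and 3 of WT, against 26.8, 23.2 and 24.1 FPKM for MSTN-KO. All MSTN-KO libraries were above all WT libraries (two-sided exact permutation test, p = 0.1, the smallest that 3 against 3 allow). The means were 20.3 ± 1.32 and 24.7 ± 1.87 FPKM (SD, n = 3), a log2FC of 0.27 (standard error 0.13, 95% interval -0.01 to 0.55, adjusted p = 0.161 by limma). Leaving out single libraries gave values from 0.21 to 0.31. When each library was scaled to a sum of 1000000 FPKM, which moves the median of all genes by -0.26, the value of *Drosha* was 0.00 and lay 0.25 above that median.

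*Xpo5* (chromosome 17, 46202782 to 46243598), the exporter of the cut hairpin, was at 22.5, 19.9 and 21.7 FPKM in WT and 20.3, 22.4 and 19.6 FPKM in MSTN-KO. The groups overlapped over nearly their whole ranges, with a log2FC of -0.04 (standard error 0.13, 95% interval -0.32 to 0.24, adjusted p = 0.85 by limma).

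*Dicer1* (chromosome 12, 104687742 to 104751952, minus strand) was at 4.77, 4.27 and 4.35 FPKM in WT and at 4.62, 4.56 and 2.99 FPKM in MSTN-KO. MSTN-KO replicates 1 and 2 lay within the WT range, and replicate 3 below all other libraries. The log2FC was -0.13 (standard error 0.17, 95% interval -0.49 to 0.24, adjusted p = 0.639 by limma), and without MSTN-KO replicate 3 it was 0.03 (95% interval -0.27 to 0.34). The partner *Tarbp2* (chromosome 15, 102518192 to 102523676) was at 63.8, 57.9 and 59.8 FPKM in WT and 63.5, 53.8 and 62.3 FPKM in MSTN-KO, a log2FC of -0.02 (95% interval -0.28 to 0.25, adjusted p = 0.937 by limma). The other partner, *Prkra* (chromosome 2, 76629898 to 76648015), was at 14.4, 17.3 and 16.2 FPKM in WT and 17.6, 17.1 and 19.7 FPKM in MSTN-KO, a log2FC of 0.17 (95% interval -0.12 to 0.46, adjusted p = 0.396 by limma). The groups overlapped for both partners. A ratio taken within a library does not depend on how that library was scaled, and the log2 ratio of *Tarbp2* to *Prkra* was 1.92 ± 0.205 in WT and 1.72 ± 0.113 in MSTN-KO (SD, n = 3). That difference of -0.20 did not exceed the spread (two-sided exact permutation test, p = 0.2, adjusted p = 0.28 over 7 ratios and shares), and it was -0.09 without WT replicate 1.

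**Figure D2:**
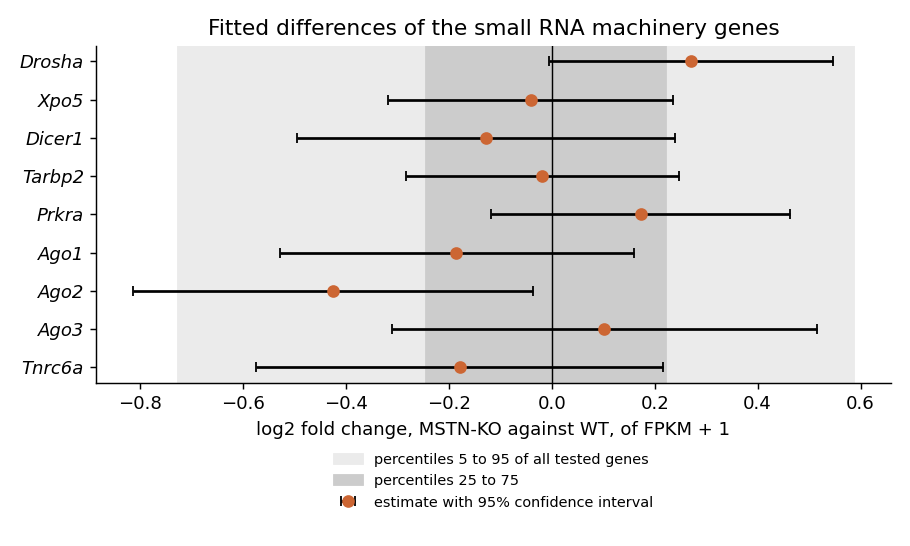
Fitted log2 fold changes of the 9 genes, MSTN-KO against WT, on the scale of log2(FPKM + 1), with 95% confidence intervals. Grey bands span percentiles 25 to 75 (-0.24 to 0.22) and 5 to 95 (-0.72 to 0.59) of all tested genes, and of the 9 intervals only that of *Ago2* lies on one side of 0.

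*Ago1* and *Ago3* lie side by side on the minus strand of chromosome 4 (126435012 to 126468583 and 126331704 to 126429556), 5455 bases apart, with *Ago4*, which is outside the list, 20957 bases beyond *Ago1*. *Ago2* is on the minus strand of chromosome 15 (73095844 to 73184935). The Argonaute genes are paralogs, and the files do not say how fragments matching more than 1 of them were counted.

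*Ago2* was the gene with the largest difference. It was at 23.1, 15.0 and 14.6 FPKM in replicates 1, 2 and 3 of WT, against 12.4, 14.6 and 10.9 FPKM for MSTN-KO. WT replicate 1 was high, at 156% of the mean of the other two WT libraries, and MSTN-KO replicate 2 reached the lower WT libraries. The log2FC was -0.42 (standard error 0.18, 95% interval -0.81 to -0.04, unadjusted p = 0.0347, adjusted p = 0.12 by limma; two-sided exact permutation test on the FPKM values, p = 0.2). Without WT replicate 1 it was -0.22 (adjusted p = 0.347 by limma), and without WT replicate 3 it was -0.54 (adjusted p = 0.0873 by limma). Scaled to a sum of 1000000 it passed the threshold at -0.70 (adjusted p = 0.0374 by limma), which is -0.44 relative to the median of all genes. The end of *Ago2* shares 219 exonic bases with *Chrac1* on the opposite strand, which was at 43.0 to 46.0 FPKM in WT and 47.8 to 60.3 FPKM in MSTN-KO, and reads there cannot be told apart if strand was not used.

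*Ago1* was at 9.24, 6.67 and 6.90 FPKM in WT and 6.57, 7.16 and 5.84 FPKM in MSTN-KO. WT replicate 1 was again the highest library, at 136% of the mean of the other two, and the groups overlapped (log2FC -0.18, 95% interval -0.53 to 0.16, adjusted p = 0.447 by limma). Without WT replicate 1 the log2FC was -0.05 (adjusted p = 0.832 by limma). *Ago3* was at 1.02, 0.915 and 0.884 FPKM in WT and 1.45, 1.29 and 0.606 FPKM in MSTN-KO. MSTN-KO replicates 1 and 2 lay above all WT libraries and replicate 3 below them, and the log2FC was 0.10 (95% interval -0.31 to 0.52, adjusted p = 0.743 by limma). Without MSTN-KO replicate 3 it was 0.29 (adjusted p = 0.267 by limma). *Ago4* stayed under 0.4 FPKM and did not pass the filter. It was at 0.346, 0.372 and 0.194 FPKM in WT and at 0.0550, 0.121 and 0.0468 FPKM in MSTN-KO, with no overlap between the groups. In a fit without the filter its difference was -0.28 on the log2(FPKM + 1) scale (adjusted p = 0.0337 by limma), which understates the change of so low a gene. That scale also compresses its spread (standard error 0.063, against 0.097 to 0.198 for the 9 genes in that fit). The adjusted p of *Ago4* is therefore to be read with caution.

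The composition of the Argonaute mRNAs was compared within libraries. *Ago2* made up 68.6%, 65.4% and 64.6% of the summed FPKM of *Ago1* to *Ago4* for WT, against 60.6%, 63.0% and 62.6% for MSTN-KO. Its share was thus lower in each MSTN-KO library than in each WT library, with means of 66.2 ± 2.10% and 62.1 ± 1.31% (SD, n = 3). The share of *Ago1* was higher without overlap, at 29.0 ± 1.61% in WT and 32.2 ± 1.38% in MSTN-KO. The shares of a library sum to the whole, so those of *Ago1* and *Ago2*, its bulk, move against each other. The ratio of *Ago2* to *Ago1* given below restates that contrast, and the level of *Ago1* itself was not higher (log2FC -0.185 by limma). The share of *Ago3* overlapped, at 3.02% to 3.98% in WT and 3.49% to 7.08% in MSTN-KO. The difference of its means was 1.73 percentage points, or 0.878 without MSTN-KO replicate 1, 2.68 without MSTN-KO replicate 3 and 2.85 after each library was corrected for the length and GC content of the genes. The share of *Ago4* was 0.863% to 1.61% in WT and 0.268% to 0.524% in MSTN-KO. For *Ago1*, *Ago2* and *Ago4* the two-sided exact permutation test gave p = 0.1, the smallest that 3 against 3 allow, and an adjusted p = 0.175 over the 7 ratios and shares, so no difference in composition passed. The log2 ratio of *Ago2* to *Ago1* was 1.19 ± 0.124 in WT and 0.95 ± 0.0717 in MSTN-KO (SD, n = 3), also without overlap and with the same p-values. The ratio of *Ago3* to *Ago1* varied most, from -3.27 to -2.18 on the log2 scale over the MSTN-KO libraries. Its difference from WT was 0.36, or 0.13 without MSTN-KO replicate 1, 0.68 without MSTN-KO replicate 3 and 0.81 after that correction. The 4 genes together were at 33.7, 23.0 and 22.5 FPKM in WT and 20.5, 23.2 and 17.4 FPKM in MSTN-KO, with overlap.

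**Figure D3:**
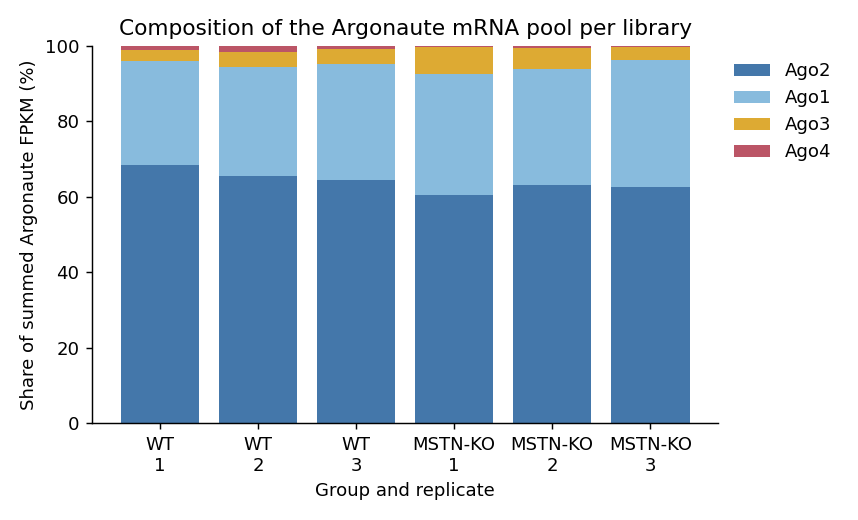
Share (%) of each of the 4 Argonaute genes in their summed FPKM, 1 stacked bar for each library. *Ago2* takes 64.6% to 68.6% in the WT bars and 60.6% to 63.0% in the MSTN-KO bars, and *Ago4* is a thin band in all.

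*Tnrc6a* (chromosome 7, 123123885 to 123195296), the scaffold that links Argonaute to the enzymes of mRNA decay, was at 4.81, 4.78 and 4.71 FPKM in WT and 4.87, 4.90 and 2.81 FPKM in MSTN-KO. Of the 6 libraries, 5 lay within a narrow band, and only MSTN-KO replicate 3 stood away from it, at 57.6% of the mean of the other two MSTN-KO libraries. The log2FC was -0.18 (95% interval -0.58 to 0.22, adjusted p = 0.526 by limma) with that library and 0.03 (95% interval -0.27 to 0.33) without it. Its paralogs *Tnrc6b* and *Tnrc6c* had log2FCs of -0.03 and 0.03 (adjusted p = 0.923 by limma and 0.918).

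The low values of MSTN-KO replicate 3 fell on the longest of the 9 genes. Relative to the mean of MSTN-KO replicates 1 and 2, on the log2(FPKM + 1) scale, it was lower by 0.63 for *Tnrc6a* (12706 exonic bases), 0.56 for *Ago3* (16571 bases), 0.48 for *Dicer1* (16750 bases), 0.29 for *Ago2* (14031 bases) and 0.20 for *Ago1* (8120 bases). For the shorter genes the difference was small or positive, at -0.12 for *Xpo5* (6859 bases), -0.04 for *Drosha* (5935 bases), 0.09 for *Tarbp2* (4549 bases) and 0.18 for *Prkra* (2028 bases). Spearman's rho between length and this difference was -0.883 over the 9 genes, which share the libraries and are given as a description. The same trend ran through all tested genes, from a median difference of 0.24 in the shortest of 10 bins (median length 1223 bases) to -0.29 in the longest (12416 bases). The 9 genes had a median exonic length of 8120 bases, against 4454 for all tested genes with a length. After each library was corrected for length and GC content, 0 of the 9 were called (limma), against 22.9% of all tested genes. The log2 fold changes of *Dicer1* and *Tnrc6a* were -0.04 and -0.11, that of *Ago3* was 0.31 (adjusted p = 0.129 by limma), that of *Drosha* 0.25 (0.0855) and that of *Ago2* -0.37 (0.109).

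**Figure D4:**
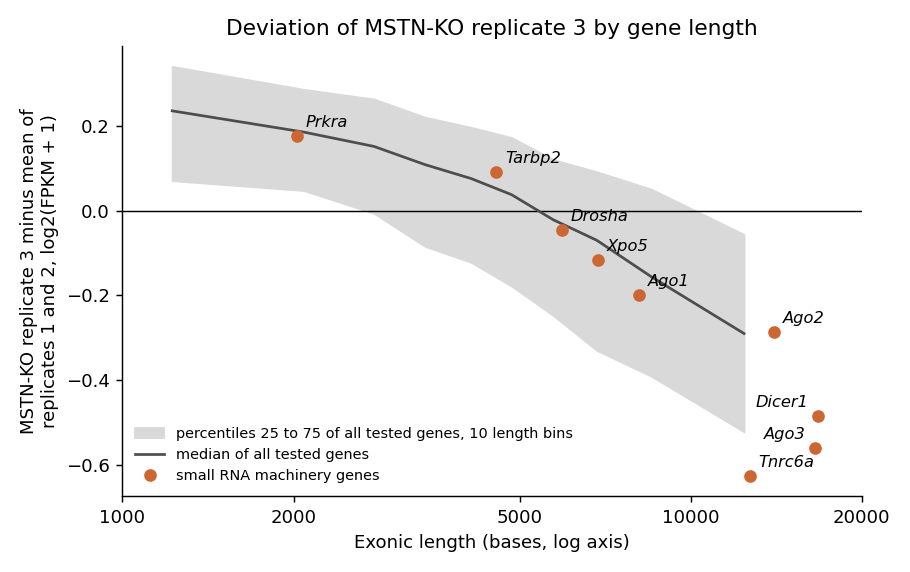
Difference of MSTN-KO replicate 3 from the mean of MSTN-KO replicates 1 and 2 on the log2(FPKM + 1) scale, by exonic length in bases (log axis), for the 9 genes (points) and for all tested genes in 10 bins of length (line, median; band, percentiles 25 to 75). The median of all genes descends from 0.24 to -0.29, and *Prkra*, the shortest of the 9, lies at 0.18 and *Tnrc6a* at -0.63.

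The other genes of the pathway were taken from a list of 58 partners, turnover enzymes and silencing effectors. Of these, 55 were in the files and 54 were tested, and 3 were called higher and 3 lower (11.1%, against 17.7% of all tested genes). Their median log2FC was -0.05, beside 0.00 for all tested genes, and 26 of the 54 (48.1%) had no overlap between the groups, against 37.4%. The developmental regulators *Lin28a*, *Lin28b* and *Trim71* were not analysed here.

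The largest fall was that of *Wtip* (chromosome 7, 34109543 to 34133268, minus strand), a LIM-domain protein of the Ajuba family, whose members associate with Argonaute and take part in silencing. It was at 14.9, 14.2 and 10.5 FPKM in WT and at 0.367, 0.305 and 0.271 FPKM in MSTN-KO. Each MSTN-KO library was far below each WT library, the ratio of the group means was 42.1, and the log2FC was -3.42 (standard error 0.17, adjusted p = 3.76e-08 by limma) and -3.56 to -3.33 on leaving out single libraries. Its relatives did not follow it to that extent. *Ajuba* was at 23.1, 22.0 and 27.0 FPKM in WT and 19.6, 17.5 and 19.5 FPKM in MSTN-KO (log2FC -0.33, adjusted p = 0.102 by limma). *Ajuba* was called lower after the length and GC correction (-0.425, adjusted p = 0.0365 by limma). Scaling to a sum of 1000000 also gave a call (-0.61, adjusted p = 0.00677 by limma), at -0.35 relative to the median of all genes. *Limd1* was at 12.7 to 13.5 FPKM in WT and 12.5 to 13.1 FPKM in MSTN-KO (-0.05, adjusted p = 0.836 by limma).

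Among the silencing effectors, 1 of 26 was called lower and 1 higher (7.69% called, against 17.7% of all tested genes). *Cnot6l*, a catalytic subunit of the CCR4-NOT deadenylase, was at 6.54, 4.90 and 5.73 FPKM in WT and 2.48, 4.08 and 2.21 FPKM in MSTN-KO (log2FC -0.80, adjusted p = 0.0125 by limma). *Pabpc1*, which binds the poly(A) tail, was at 413, 462 and 503 FPKM in WT and 621, 687 and 661 FPKM in MSTN-KO (log2FC 0.52, adjusted p = 0.0145 by limma). Of the 6 tested genes for tailing and turnover, 1 was called (16.7%, near the 17.7% of all tested genes). It was *Tent2*, a poly(A) polymerase that extends RNA ends. *Tent2* was lower at 5.19, 9.38 and 6.83 FPKM in MSTN-KO against 11.0, 12.1 and 13.7 FPKM in WT (log2FC -0.73, adjusted p = 0.0161 by limma). Without MSTN-KO replicate 3 neither *Cnot6l* nor *Tent2* passed, and the count called lower was 1, *Wtip*, though the log2FCs were still -0.67 (adjusted p = 0.0543 by limma) and -0.72 (adjusted p = 0.0585 by limma). *Cnot6l* was also lost without WT replicate 1, and *Tent2* without WT replicate 3 or MSTN-KO replicate 1. With the length and GC correction described above both passed, at -0.56 (adjusted p = 0.0186 by limma) and -0.57 (adjusted p = 0.0262 by limma).

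The other 2 genes called higher were *Adarb1*, an adenosine deaminase that edits double-stranded RNA, and *Mov10*, a helicase that associates with Argonaute. *Adarb1* was at 5.06, 4.22 and 4.89 FPKM in WT and 7.06, 8.95 and 6.11 FPKM in MSTN-KO (log2FC 0.54, adjusted p = 0.0369 by limma). *Mov10* was at 8.95, 7.12 and 5.73 FPKM in WT and 9.74, 11.0 and 11.1 FPKM in MSTN-KO (log2FC 0.51, adjusted p = 0.0485 by limma). Both calls sat close to the threshold: of 16 alternative settings *Adarb1* passed in 7, *Mov10* in 6, *Pabpc1* and *Tent2* in 12 each, *Cnot6l* in 13 and *Wtip* in all 16. *Pabpc1* did not pass without WT replicate 1 or 2, after quantile normalization or after scaling to a sum of 1000000. Of the 9 partners of the microprocessor, 0 were called by limma, against 17.7% of all tested genes. Among them were the helicases *Ddx5* and *Ddx17* and the cap-binding *Ncbp1* and *Ncbp2*. The log2FCs of the 9 ran from -0.19 to 0.27, and in 3 of them the groups did not overlap, against 37.4% of all tested genes.

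**Figure D5:**
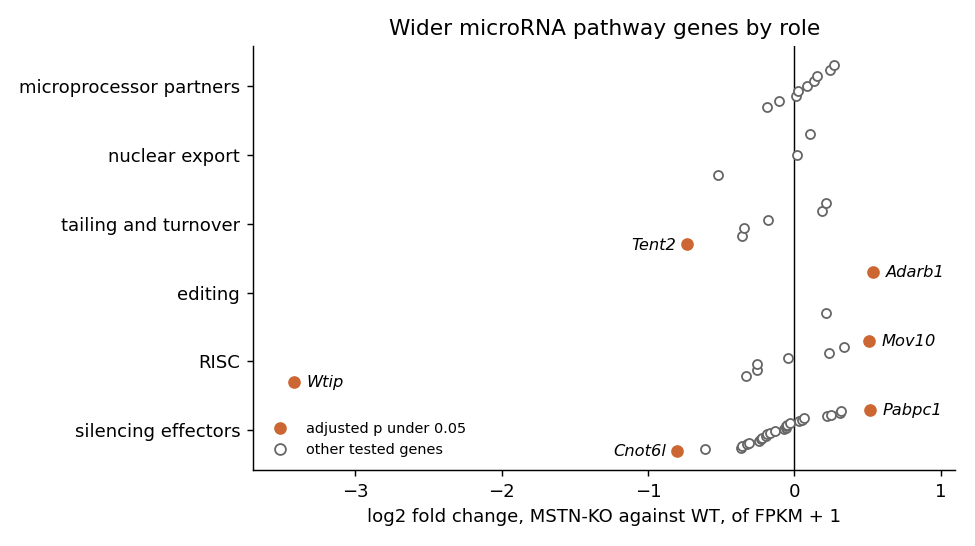
Log2 fold changes, MSTN-KO against WT, on the scale of log2(FPKM + 1), of the 54 tested genes of the wider pathway list by role, each point a gene, filled where the limma adjusted p was under 0.05. The 6 filled points are *Wtip* at -3.42, *Cnot6l* at -0.80, *Tent2* at -0.73, *Mov10* at 0.51, *Pabpc1* at 0.52 and *Adarb1* at 0.54.

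Of 16 listed transcripts that host miRNAs, 1 was in the files, *Mest*, which holds the Mir335 hairpin shown above. It was at 21.8, 15.5 and 16.3 FPKM in WT and at 0.883, 2.32 and 1.86 FPKM in MSTN-KO. The groups lay far apart, with a ratio of means of 10.6 and a log2FC of -2.84 (standard error 0.21, adjusted p = 1.29e-06 by limma). *Mest* shares 912 exonic bases with *Copg2* on the opposite strand, so part of its value could be reads of that gene if strand was not used. The study reported both mature miRNAs of Mir335 as upregulated in MSTN-KO, also by qRT-PCR, which is opposite to the fall of *Mest*. Mature miRNAs were not measured in these libraries, and the relation of this mRNA to them was not tested.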

How the data were processed

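RNA-seq libraries of C2C12 cells (3 WT, 3 MSTN-KO) were used, grouped by the genotype in the labels. The authors sequenced on an Illumina HiSeq system and deposited FPKM values per gene, 1 library per file; the submitters' processing notes name Bowtie 0.12.2 and mm8 without their roles, and the annotation and counting tool are not given in the sources used here. Symbols, positions and exonic lengths came from GENCODE M21 on GRCm38 (14445 of 14548 identifiers had a length and GC content), and sequences from RefSeq. Since FPKM is relative to the fragments of a library, abundant genes that take more of it lower all others.

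Values were taken as log2(FPKM + 1) and fitted with limma 3.58.1 in R 4.3.3 (group coefficient, eBayes with trend) over genes that reached 1 FPKM in any library. Fold changes on this scale understate those of low genes. Exact permutation tests enumerated every split of the 6 libraries into 3 and 3. The members and lists were chosen with earlier results of these data known. Named are the members, and of the other lists up to 5 rises and 5 falls with an adjusted p under 0.05. Genes outside that rule (paralogs, an overlapping gene, further examples) were added after their values were seen. Alternatives were the pseudocount, filter, trend, scaling, a correction for length and GC content (mgcv 1.9.3), the replicate block and leaving out each library. The fit was tested on simulated data, where it recovered 68% of 200 genes changed by 1 on the log2 scale and called 4 unchanged genes. Smaller changes were not simulated. Other steps used Python 3.11.15 with pandas 2.3.3, numpy 2.4.6 and matplotlib 3.10.9.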

Additional observations from a re-analysis of the deposited data

How the results depend on the processing

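For the 9 genes under 16 alternatives each, 135 fitted values kept their direction and their side of the threshold. *Ago2* passed the threshold under 1 alternative, scaling to a sum of 1000000, where 1 of the 9 was called lower instead of 0. Directions turned, without a call, for *Drosha* (-0.00326), *Prkra* (-0.0991) and *Ago3* (-0.0373) after that scaling, which moves the median of all genes by -0.26. With each library left out the values ranged from -0.212 to 0.0334 for *Dicer1* and from -0.285 to 0.0292 for *Tnrc6a* (both above 0 only without MSTN-KO replicate 3), from -0.0615 to 0.0563 for *Tarbp2* from -0.0166 to 0.289 for *Ago3*, from -0.0943 to -0.00231 for *Xpo5*, from 0.105 to 0.229 for *Prkra* and from -0.261 to -0.0528 for *Ago1*.
Of the wider pathway genes, 1 was called higher without the filter, 1 with scaling by the percentile 75, 0 with scaling to 1000000 and 5 with the length and GC correction, instead of 3. The number called lower was 5, 16 and 7 under the last 3 of these, instead of 3. With each library left out it ranged from 1 to 6, and the number called higher from 0 to 2. Over all 10837 tested genes, 952 were called higher and 971 lower in the main fit. Without the filter 720 and 906 of 14548 genes were called, and 757 and 1192 with scaling by the percentile 75. Scaling to 1000000 gave 350 and 2367, and the length and GC correction 1181 and 1302. With each library left out 419 to 1175 and 611 to 1233 were called. 
Deviations of same-numbered libraries from their group means correlated at -0.0153, -0.128 and -0.142 across genes, so the numbers were not taken as pairs. With the replicate block 0 of the 9 genes were called, and 2 wider genes were called higher and 4 lower. Over all tested genes the counts with the block were 939 and 1001. With the block and the length and GC correction together 3 and 5 wider genes were called, beside 1006 and 1103 of all tested genes. Depth is unknown. *Ago3*, near 1 FPKM, had the largest standard error of the 9 genes in the main fit (0.191), and *Ago4*, under 1 FPKM, did not pass the filter.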

Other observations

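Within 250000 bases of *Wtip* the files held 5 other genes. Of these, 0 were called lower by limma, against 8.96% of all tested genes. At an unadjusted p under 0.05 by limma the count lower was also 0, against 32.6% of all tested genes in either direction. So few genes cannot show a difference from those shares. Among the 5, 1 was called higher, against 8.78% of all tested genes. It was *Gpi1*, the glycolytic enzyme glucose-6-phosphate isomerase, at 426.5 to 488 FPKM in MSTN-KO against 285 to 338 FPKM in WT (log2FC 0.54, adjusted p = 0.0108 by limma). The others were not called, among them the adjacent *Uba2* at 34.4 to 46.2 FPKM in WT and 40.0 to 48.9 FPKM in MSTN-KO (0.13, adjusted p = 0.559 by limma) and *Lsm14a*, a decapping cofactor of the wider list (-0.06, adjusted p = 0.798 by limma). These neighbours were looked up after the value of *Wtip* was seen.

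By the mean absolute difference of log2(FPKM + 1) over the 6 libraries, with each gene centred on its own mean, the tested genes most like *Ago2* were *Fn1* (0.020), *Neurl1b* (0.041) and *Clasp1* (0.055). *Fn1*, which encodes the matrix protein fibronectin, was at 847, 559.8 and 530.1 FPKM in WT and 459, 547 and 426 FPKM in MSTN-KO, so WT replicate 1 was the highest library for it as for *Ago2*. Most like *Dicer1* were *Virma* (0.024), *Rsbn1l* (0.029) and *Kif3b* (0.031), and each of these was lowest in MSTN-KO replicate 3, as *Dicer1* was. All were picked for profiles close to those of *Ago2* or *Dicer1*, so a shared highest or lowest library follows from that choice.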
